A study of Mus musculus with 6 samples.

Results

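The genes described here are 36 genes of the NF-kB pathway and its inflammatory targets, chosen by name from a list of subunits, inhibitors, adaptors and target genes and matched by symbol to the 56748 gene identifiers of the count table. Of these 36 genes, 29 had 10 or more counts in at least 3 of the 6 samples, and the same 29 passed the filter of the statistical test. The samples are ureters of wildtype NMRI mouse embryos, explanted at E12.5 and grown for 18 h on transwell membranes. All samples were kept in DMEM/F12, and LiCl is the one difference in medium that the labels give. The labels of these samples name no serum. The study's general culture medium held fetal calf serum, while its cultures for microarrays and RT-qPCR were kept without it. The RNA-seq cultures are not named in that statement, so the use of serum here is uncertain. In 3 samples the medium held 15 mM LiCl, which blocks the kinase GSK3 and thereby activates canonical WNT signaling, and 3 controls received water. The study used this treatment to ask how ectopic WNT signaling changes gene expression in the early ureter. No sample with another salt at the same concentration was analysed here, and nothing in the labels says whether the replicates are separate cultures, litters or pools, so p-values measure only the spread between these samples, which may be technical.

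NF-kB is a family of dimeric transcription factors. In resting cells, IkB proteins hold most dimers in the cytoplasm. Cytokines such as TNF and IL-1 and ligands of Toll-like receptors activate the IKK kinase complex, IkB is then degraded, and the freed dimers bind kappaB sites near genes for chemokines, cytokines, adhesion molecules and the inhibitors of the pathway itself. The transcript of a pathway gene does not report whether the protein is in the nucleus, and GSK3 acts on several pathways besides WNT signaling.

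The stretches below show what a kappaB site looks like in the promoters of these genes. They come from the RefSeq promoter table for GRCm38.p6, which covers 250 bases before to 50 bases after each annotated start and holds 29 of the 36 genes. *Nfkb1*, *Relb*, *Nfkbiz*, *Ccl2*, *Ccl7*, *Vcam1* and *Cebpd* had no entry. A match of 10 letters to the kappaB consensus was searched on both strands, and each stretch is given 5′ to 3′ on the strand of the gene, with the match, or the union of overlapping matches, in capitals. The first 4 belong to genes whose expression changed with LiCl, namely *Nfkbia* (chr12:55492657-55492686, minus strand), *Tnip1* (chr11:54962978-54963007, minus strand), *Irf1* (chr11:53769991-53770020, plus strand) and *Ier3* (chr17:35821611-35821640, plus strand).
Nfkbia: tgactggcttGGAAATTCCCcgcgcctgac
Tnip1: tccatcatgGGGGAATTCCCCtcctgcctc
Irf1: agtccgggccGGGGAATCCCgctaagtgtt
Ier3: tgcgaagggcGGAGTTCCCCccggcccggc
The other 4 belong to genes whose expression did not pass the test, namely *Nfkb2* (chr19:46304689-46304717, plus strand), *Rel* (chr11:23771042-23771070, minus strand), *Tnfaip3* (chr10:19015403-19015432, minus strand) and *Sod2* (chr17:13007746-13007775, plus strand).
Nfkb2: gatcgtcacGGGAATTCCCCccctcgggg
Rel: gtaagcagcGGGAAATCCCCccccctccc
Tnfaip3: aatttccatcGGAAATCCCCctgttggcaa
Sod2: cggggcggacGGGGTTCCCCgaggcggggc
The matches in all 8 stretches lie upstream of the annotated start. A letter match is a description and not a proof of binding.

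After 18 h with LiCl, the NF-kB genes did not move as one group. *Vcam1*, which encodes an adhesion molecule for leukocytes, and *Traf1*, a signaling adaptor, fell to less than 1/2 of their control expression. *Icam1*, another adhesion molecule, and the IkB genes *Nfkbia* and *Nfkbib* rose, each by less than 50%. *Il6*, *Il1b*, *Csf2* and *Lcn2*, genes typical of an acute NF-kB response, were at or close to 0 counts in both groups. Outside the 36 genes, other NF-kB targets and CXC chemokine genes went both ways. *Cxcl3*, *Cxcl2*, *C3* and *Mmp9* rose and *Cxcl13*, *Cxcl12* and *Ccl11* fell by more than 1 log2 unit. *Ccl11* was at only a few counts with LiCl and passed the filter through its controls. In whole explants, fewer cells of a type and less RNA per cell cannot be told apart, so a fall of any of these transcripts may reflect either.

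The comparison used the deposited counts and edgeR's quasi-likelihood test, with p-values adjusted by the Benjamini-Hochberg method over the 18188 genes tested. Log2 fold changes are LiCl minus control, and CPM are counts relative to TMM-scaled library size. At an adjusted p under 0.05 together with a log2 fold change above 1 or below -1, 0 of the 29 tested NF-kB genes were higher and 2 were lower, or 6.90%. The count of higher genes was also 0 at an unadjusted p under 0.05, with DESeq2 and with limma. Among all tested genes, 2.74% were higher, 4.59% were lower and 7.33% were called in either direction by this rule. At an adjusted p under 0.05 alone, 4 NF-kB genes were higher and 8 lower, or 41.4%, against a background of 21.1% higher, 22.4% lower and 43.5% in either direction. Both shares of the NF-kB genes were thus close to those of all genes.

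The median log2 fold change of the 29 genes was -0.08, and that of all tested genes was -0.01. The values ran from -1.21 for *Vcam1* to 0.67 for *Ptgs2*, and 23 of the 29 lay within 0.5 of 0. In 16 of them, or 55.2%, the CPM of LiCl and control samples did not overlap, with 4 higher and 12 lower, whereas 54.2% of all tested genes had groups that did not overlap (26.4% higher and 27.8% lower).

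**Figure D1:**
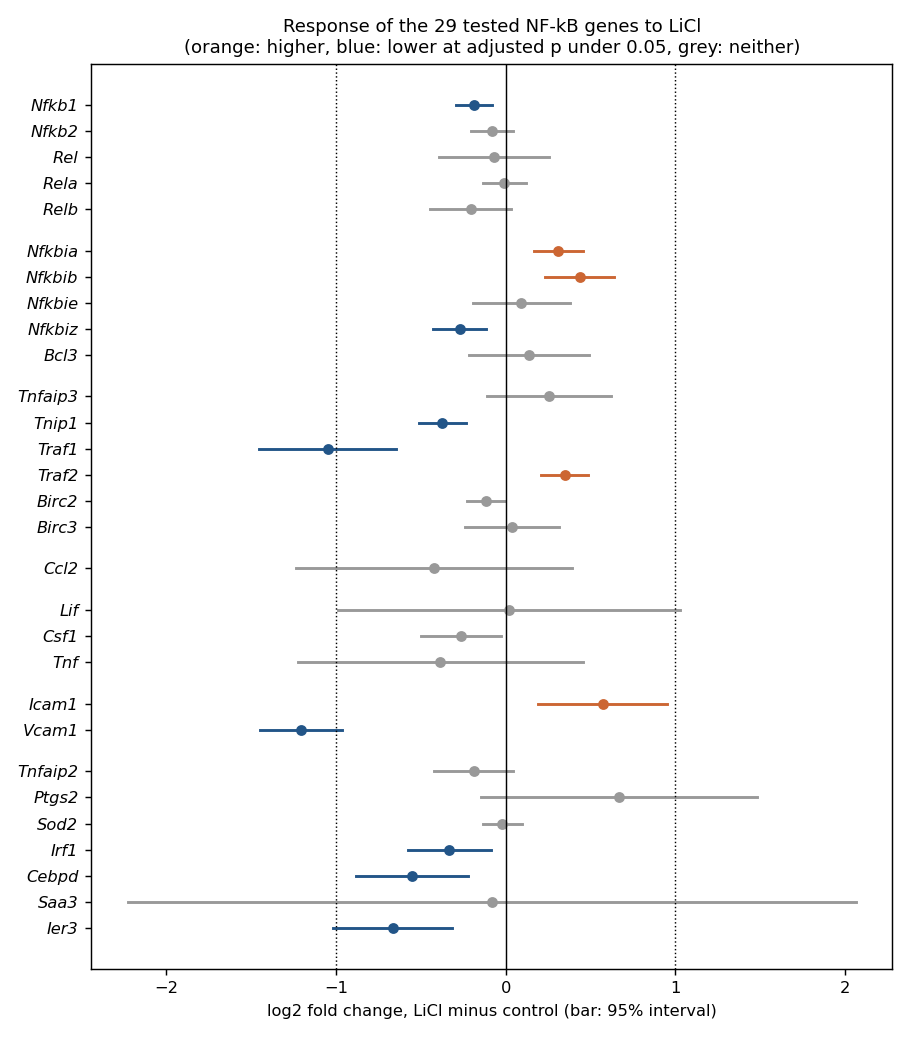
Log2 fold change, LiCl minus control, of the 29 tested NF-kB genes, arranged by role, with bars for the unadjusted 95% interval of edgeR's quasi-likelihood fit. Most points lie close to 0, *Vcam1* and *Traf1* lie below -1, and *Saa3* has the widest interval.

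Expression of the NF-kB genes differed widely in level. On the FPKM scale, which divides by gene length and allows genes to be compared, the highest mean level in controls was that of *Rela*, which encodes the transactivating subunit of the classical dimer, at 20.04 ± 0.71 FPKM (SD, n = 3). *Nfkbia*, which encodes the inhibitor IkB-alpha, came next at 17.04 ± 0.63 FPKM (SD, n = 3). *Birc2*, an E3 ubiquitin ligase of TNF receptor complexes, followed at 13.4 ± 0.25 FPKM, and *Tnip1*, which encodes a partner of the feedback inhibitor TNFAIP3, at 10.7 ± 0.35 FPKM (each SD, n = 3). These 4 genes did not overlap with their neighbours in the control order. This order depends on the gene length used, which was 12061 bases for *Nfkb1* and 3072 for *Rela*. In CPM, which do not divide by length, *Nfkb1* (mean 68.5) lay above *Rela* (mean 62.2) in controls. With LiCl, *Nfkbia* at 21.4 ± 1.28 FPKM and *Rela* at 20.2 ± 1.25 FPKM (each SD, n = 3) overlapped. Several chemokine and cytokine genes, by contrast, lay below 0.5 FPKM in both groups, among them *Tnf* and *Lif*.

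**Figure D2:**
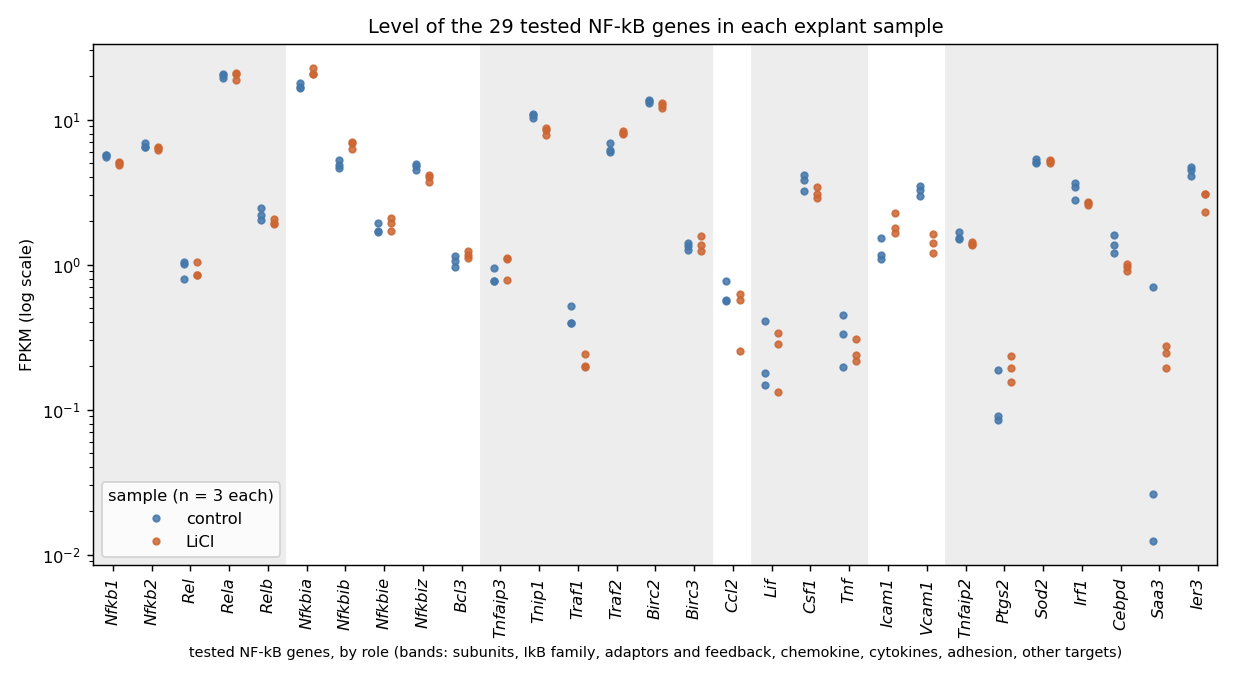
FPKM (log axis) of the 29 tested NF-kB genes in each of the 6 samples, with 1 point per sample and the groups in different colours. *Rela* and *Nfkbia* lie at the upper end, and *Tnf*, *Lif*, *Ptgs2* and *Saa3* near the lower end, with *Saa3* spread most widely among the controls.

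Of the 5 subunit genes, only *Nfkb1* passed the test. It encodes the precursor of the p50 subunit and had CPM of 67.4, 68.7 and 69.5 in the controls and 58.8, 61.2 and 60.6 with LiCl. The groups did not overlap, and their SDs were 1.06 and 1.25 CPM. On the log2(CPM + 0.1) scale, the pooled SD of 0.03 was the smallest of the 29 genes. Its expression decreased by 12.2% (log2 fold change -0.19, standard error 0.05, adjusted p = 0.0095). Without control replicate 3, the adjusted p of *Nfkb1* was 0.0503.

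*Rela* had 60.2, 63.6 and 63.0 CPM in controls and 64.5, 57.6 and 63.6 CPM with LiCl, so the range of the controls lay within that of the LiCl samples. Its log2 fold change was -0.01, with a 95% interval from -0.14 to 0.12 (adjusted p = 0.93). *Nfkb2* and *Relb*, which form the dimer of the non-canonical pathway, had log2 fold changes of -0.08 and -0.21 (adjusted p = 0.27 and 0.15), with every LiCl sample below every control in both genes. *Rel*, a subunit best known from lymphocytes, had a log2 fold change of -0.07 (95% interval -0.39 to 0.26). The FPKM of the 5 subunit genes summed to 34.3, 36.4 and 35.7 in controls and to 35.1, 32.9 and 35.1 with LiCl.

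The IkB family moved in different directions. The CPM of *Nfkbia* were 29.1, 27.2 and 27.0 in controls and 36.7, 33.1 and 33.3 with LiCl, and *Nfkbia* expression rose by 24.0% (log2 fold change 0.31, standard error 0.06, adjusted p = 0.0041). *Nfkbia* is itself an NF-kB target, and its product is the main inhibitor that is lost upon stimulation. *Nfkbib*, which encodes IkB-beta, had 10.2, 10.7 and 11.5 CPM in controls and 15.3, 14.9 and 13.6 CPM with LiCl. The groups of both genes were well separated, and *Nfkbib* rose by 35.2% (log2 fold change 0.44, standard error 0.09, adjusted p = 0.0038).

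*Nfkbiz* encodes a nuclear IkB protein that cooperates with p50 homodimers at a subset of targets. It had 24.4, 24.8 and 22.9 CPM in controls and 20.9, 20.2 and 18.7 CPM with LiCl, without overlap, and decreased by 17.2% (log2 fold change -0.27, standard error 0.07, adjusted p = 0.011). Without LiCl replicate 3, the adjusted p of *Nfkbiz* was 0.055. *Nfkbie*, the gene of IkB-epsilon, and *Bcl3*, the gene of a nuclear coactivator of the same family, had log2 fold changes of 0.09 and 0.14 (adjusted p = 0.59 and 0.51), with overlapping groups. The FPKM of the 5 IkB family genes summed to 29.995, 29.2 and 29.4 in controls and to 37.3, 34.4 and 33.8 with LiCl. In FPKM, the IkB sums of the groups thus did not overlap, whereas those of the subunits did. In CPM, which do not divide by length, the subunit sums did not overlap either. They were 173.9 to 179.6 CPM in controls and 162.4 to 167.7 CPM with LiCl. *Nfkbia* holds most of the IkB sum in FPKM, and the sums were not tested.

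Among the signal adaptors and feedback regulators, *Traf1* had the largest change. *Traf1* encodes an adaptor of TNF receptor signaling that is itself induced by NF-kB. It had 3.55, 4.57 and 3.52 CPM in controls and 2.12, 1.75 and 1.74 CPM with LiCl, which amounts to 102, 142 and 108 counts against 66, 49 and 49. All LiCl samples lay well below all controls. Expression of *Traf1* fell by 51.7% (log2 fold change -1.05, 95% interval -1.45 to -0.64, adjusted p = 0.0014). The value lies close to the fold change threshold and was -0.91 without control replicate 2 and -0.99 without LiCl replicate 3, with adjusted p of 0.0058 and 0.0083.

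*Traf2*, the adaptor with which *Traf1* forms complexes, went the other way. It had 30.9, 35.2 and 31.9 CPM in controls and 41.3, 40.9 and 42.5 CPM with LiCl, and rose by 27.3% (log2 fold change 0.35, standard error 0.06, adjusted p = 0.0018). *Tnip1* had 39.1, 36.8 and 39.3 CPM in controls and 30.96, 27.7 and 30.1 CPM with LiCl. Neither gene showed any overlap between groups, and *Tnip1* decreased by 22.9% (log2 fold change -0.37, standard error 0.06, adjusted p = 0.0011).

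*Tnfaip3*, which encodes the ubiquitin-editing feedback inhibitor of the pathway, had a log2 fold change of 0.25 with a 95% interval from -0.11 to 0.62 (adjusted p = 0.24) and overlapping groups. *Birc2* and *Birc3*, the genes of cellular inhibitors of apoptosis, had log2 fold changes of -0.11 and 0.04 (adjusted p = 0.087 and 0.82). The 3 LiCl samples of *Birc2*, with 59.3, 55.0 and 57.2 CPM, lay below the controls with 61.1, 62.6 and 62.1 CPM, and its unadjusted interval excluded 0 (-0.23 to -0.0041). *Birc2* passed the test when counts were scaled by library size alone.

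The chemokine genes were barely expressed. *Ccl2*, which encodes the main attractant of monocytes, had 19, 20 and 27 counts in controls and 9, 18 and 20 with LiCl, or a log2 fold change of -0.42 (95% interval -1.24 to 0.39, adjusted p = 0.37). *Ccl7*, a close relative, had 0, 1 and 5 counts in controls and 0, 1 and 3 with LiCl and was not tested. Because *Ccl2* and *Ccl7* are similar in sequence, the division of reads between them is uncertain. *Ccl20*, which encodes a ligand of the receptor CCR6, had 48, 1 and 4 counts in controls and 0, 0 and 0 with LiCl. Most of its reads came from control replicate 1, and the gene was not tested.

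The cytokine genes were also at low levels, with 1 exception. *Csf1*, which encodes the growth factor of macrophages, had 22.2, 20.3 and 17.3 CPM in controls and 18.1, 15.3 and 16.2 CPM with LiCl. The groups overlapped slightly, and the log2 fold change of -0.26 (95% interval -0.50 to -0.03) missed the threshold at an adjusted p of 0.069. *Csf1* passed the test when counts were scaled by library size alone, and without control replicate 3 or LiCl replicate 1. *Tnf* had 16, 23 and 10 counts in controls and 11, 14 and 11 with LiCl (log2 fold change -0.39, 95% interval -1.23 to 0.46, adjusted p = 0.44).

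*Lif*, which encodes a cytokine of the IL-6 family, had 52, 20 and 24 counts in controls and 38, 16 and 41 with LiCl, and its log2 fold change of 0.02 came with an interval from -0.99 to 1.03. The intervals of *Tnf* and *Lif* leave room for changes in either direction at these counts. *Il1a* had 6, 5 and 13 counts in controls and 4, 4 and 4 with LiCl. *Il1b* had at most 7 counts and *Il6* at most 2 counts in any sample, and *Csf2* had 0 counts in all 6 samples. Neither *Il1a*, *Il1b*, *Il6* nor *Csf2* reached the count minimum.

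The adhesion molecules showed the clearest contrast. VCAM1 binds the integrin VLA-4 on leukocytes and ICAM1 binds LFA-1, and both genes are classical NF-kB targets in endothelium, although other cells express them too. *Vcam1* had 26.8, 30.99 and 29.2 CPM in controls and 12.52, 10.7 and 14.4 CPM with LiCl. The highest LiCl sample lay far below the lowest control, and expression of *Vcam1* fell by 56.7% (log2 fold change -1.21, 95% interval -1.45 to -0.97, adjusted p = 3.4e-05).

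*Icam1* had 6.82, 5.09 and 4.80 CPM in controls and 7.79, 7.23 and 9.79 CPM with LiCl. There was no overlap, although the highest control was close to the lowest LiCl sample, and *Icam1* rose by 48.7% (log2 fold change 0.57, standard error 0.17, adjusted p = 0.022). The call for *Icam1* rested on few samples, since its adjusted p was 0.064 without control replicate 2, 0.075 without control replicate 3 and 0.079 without LiCl replicate 3. In FPKM, *Vcam1* was above *Icam1* in controls (3.24 ± 0.25 against 1.26 ± 0.24) and below it with LiCl (1.42 ± 0.21 against 1.90 ± 0.31, each SD, n = 3). The order with LiCl depends on the gene length used, 8870 bases for *Vcam1* and 4360 for *Icam1*. In CPM, *Vcam1* stayed above *Icam1* with LiCl (mean 12.6 against 8.27).

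**Figure D3:**
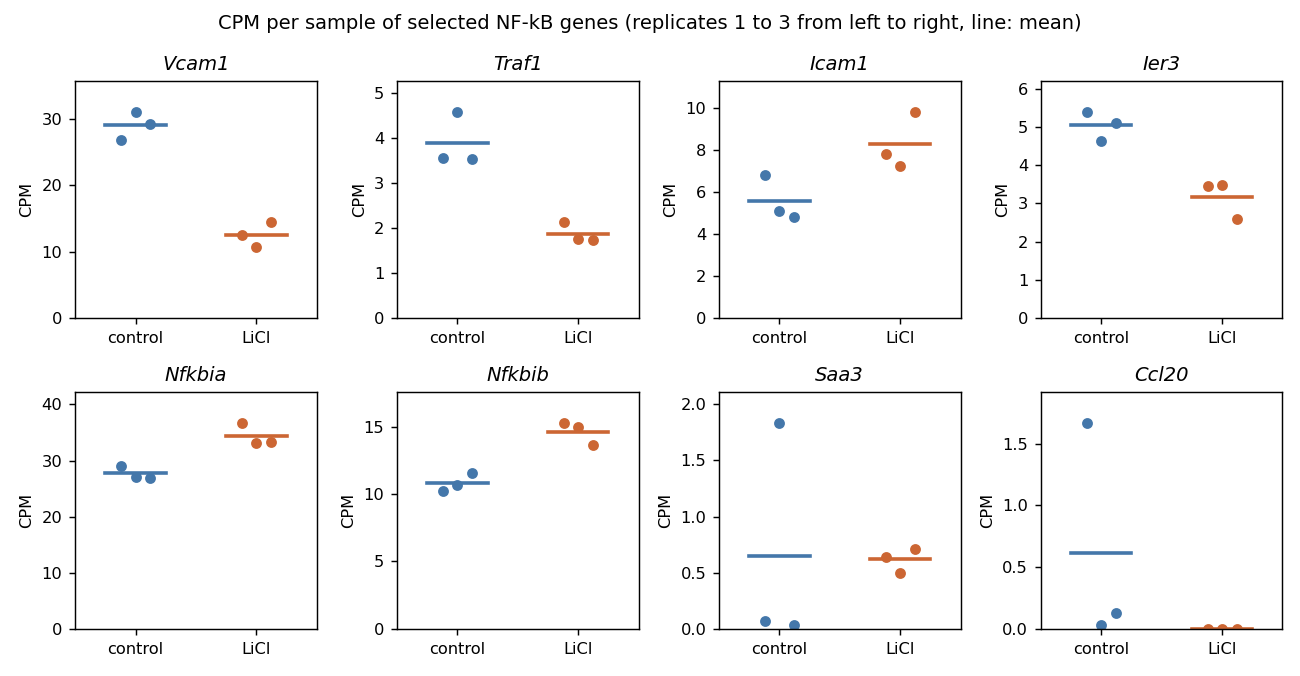
CPM in each of the 6 samples for 8 selected NF-kB genes, with 1 panel per gene, 1 point per sample and a line at each group mean. *Vcam1* falls from between 26.8 and 30.99 CPM to between 10.7 and 14.4 CPM, *Icam1*, *Nfkbia* and *Nfkbib* are higher in every LiCl sample than in every control, and 1 control stands far above the others in *Saa3* and in *Ccl20*.

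Of the 7 tested genes among the other targets, 3 were lower and 0 higher at an adjusted p under 0.05, or 42.9%. Among all tested genes, 22.4% were lower and 43.5% passed in either direction. *Ier3*, an immediate early gene that acts on cell survival, had 5.39, 4.64 and 5.09 CPM in controls and 3.44, 3.47 and 2.59 CPM with LiCl, and fell by 37.0% (log2 fold change -0.67, standard error 0.16, adjusted p = 0.0075). *Cebpd*, which encodes a transcription factor of the acute phase response, had 5.22, 6.02 and 4.54 CPM in controls and 3.80, 3.36 and 3.58 CPM with LiCl. The groups of both genes were separate, and *Cebpd* fell by 31.8% (log2 fold change -0.55, standard error 0.15, adjusted p = 0.014). *Irf1*, which encodes a transcription factor of the interferon response, had 13.8, 14.6 and 11.3 CPM in controls and 10.2, 10.7 and 10.6 CPM with LiCl.

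The LiCl samples of *Irf1* were close together and just below the lowest control. *Irf1* fell by 20.6% (log2 fold change -0.33, standard error 0.11, adjusted p = 0.034), but it passed the test in only 7 of 16 alternative settings, and was lost when any single sample other than control replicate 3 was left out (adjusted p 0.061 to 0.12). *Tnfaip2* had a log2 fold change of -0.19 (adjusted p = 0.17), with every LiCl sample below every control. *Sod2*, which encodes the mitochondrial superoxide dismutase and was abundant with 52.2 ± 1.72 CPM in controls and 51.5 ± 1.22 CPM with LiCl (each SD, n = 3), had a log2 fold change of -0.02 with an interval from -0.13 to 0.09.

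*Ptgs2*, which encodes the inducible cyclooxygenase, had 25, 13 and 12 counts in controls and 22, 30 and 25 with LiCl. Control replicate 1 lay within the LiCl range, and the log2 fold change of 0.67 had an interval from -0.14 to 1.48 (adjusted p = 0.16). Without control replicate 1, the log2 fold change of *Ptgs2* was 1.12 (adjusted p = 0.035). *Saa3*, an acute phase gene of a family with similar copies, had 2, 57 and 1 counts in controls and 20, 14 and 20 with LiCl. The value of *Saa3* was decided by control replicate 2: the log2 fold change was -0.08 with all samples and 3.51 without that sample (adjusted p = 0.95 and 0.0020). *Lcn2*, which encodes lipocalin 2, a transcript strongly induced in injured tubules, had at most 2 counts in any sample and was not tested.

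The count minimum itself touched few genes. Of the 29 tested genes, 27 had 10 or more counts in all 6 samples, and *Ccl2* and *Saa3* passed with fewer samples. Just inside the minimum lay *Tnf* and *Saa3*, and just outside lay *Il1a* and *Ccl20*. *Saa3* passed through its 3 LiCl samples and only 1 control.

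**Figure D4:**
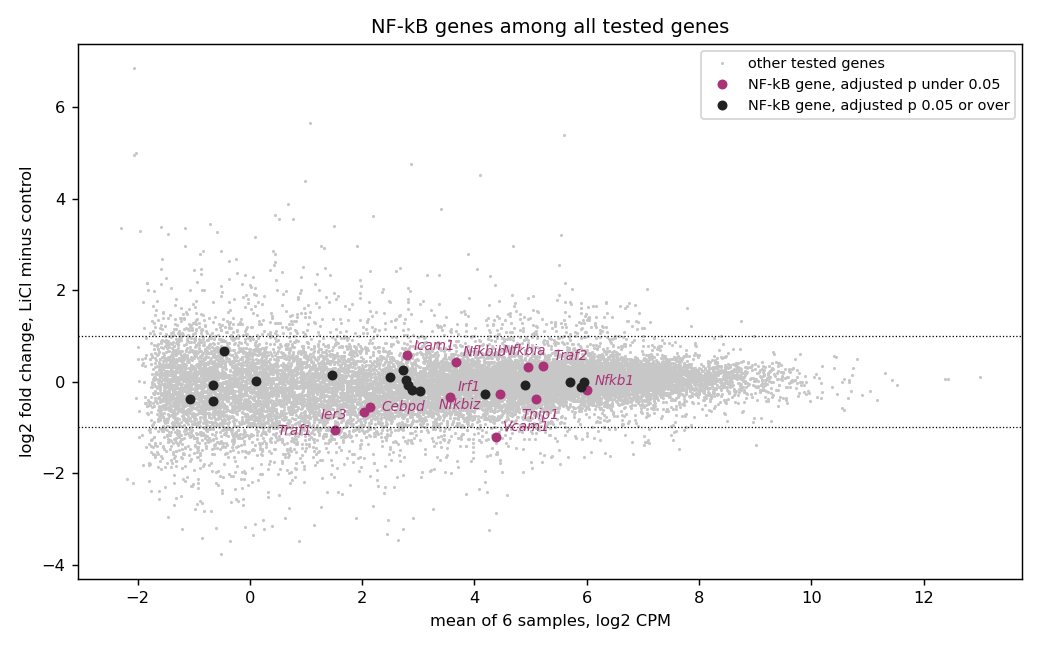
Log2 fold change, LiCl minus control, against the mean log2 CPM of all tested genes, with the 29 NF-kB genes drawn as larger points and those that passed the test named. Of the NF-kB genes, only *Vcam1* and *Traf1* lie beyond the dotted lines at log2 fold changes of 1 and -1.

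In the promoter windows, the kappaB consensus was found in 15 of the 29 NF-kB genes with an entry, or 51.7%, and in 9.55% of all 27025 genes of the table. The core of TCF/LEF sites, CTTTGA, at which the effectors of WNT signaling bind, was found on either strand in 3 of the 29 genes, or 10.3%, and in 18.2% of all genes. The genes were chosen as parts or known targets of the NF-kB pathway, so the first of these shares describes the list. No match says only that these letters are not in the window.

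The response to LiCl was also set beside the presence of a match. Of the 13 tested genes with a kappaB match, 1 was higher and 3 lower at an adjusted p under 0.05, with a median log2 fold change of -0.07. Of the 10 tested genes without a match, 3 were higher and 1 lower, with a median of 0.02. *Nfkb1*, *Relb*, *Nfkbiz*, *Ccl2*, *Vcam1* and *Cebpd* were tested but had no entry, so they are in neither group. Of these, *Nfkb1*, *Nfkbiz*, *Vcam1* and *Cebpd* were lower. Over all tested genes with an entry, 1532 had a kappaB match and 10654 had none. With a match, 21.8% were higher and 27.4% lower at an adjusted p under 0.05, or 49.2%, with a median of -0.04. Without one, 23.9% were higher and 23.1% lower, or 47.0%, with a median of -0.00. The difference between genes with and without a match was not tested.

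Genes further up and down the pathway were taken from 5 lists of receptors, kinases and adaptors, inhibitors, ligands and other targets, which hold none of the 36 genes. Of their 81 tested genes, 16 were higher and 22 lower at an adjusted p under 0.05, or 46.9%, against 43.5% of all genes. With the fold change threshold, 3 were higher and 4 lower, or 8.64%, against 7.33% of all genes. Both pooled shares were thus near those of all genes. The single lists held 5 to 25 tested genes each. Their shares at an adjusted p under 0.05 alone ran from 31.6% for receptors to 60.0% for ligands.

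Among 19 tested receptor genes, 2 were higher and 4 lower, and 1 of them was beyond the fold change threshold. *Il1rl1*, which encodes the IL-33 receptor ST2, had 20, 18 and 12 counts in controls and 7, 9 and 4 with LiCl (log2 fold change -1.26, standard error 0.40, adjusted p = 0.031). *Il1rl1* passed the filter through its 3 controls, since no LiCl sample reached 10 counts. Its call was lost with DESeq2 and with limma on log2(FPKM + 1) without filter (adjusted p = 0.12 in both). The call was also lost without control replicate 1 or 2 and without LiCl replicate 1 or 3, at adjusted p between 0.076 and 0.11. The 2 receptor genes that rose were *Il1r1*, which encodes the signaling receptor of IL-1, and *Tlr2*, which encodes a receptor for bacterial lipoproteins. Their log2 fold changes were 0.90 and 0.73 (standard errors 0.13 and 0.15, adjusted p = 0.00062 and 0.0039). *Il1r1* had 9.39, 7.57 and 7.57 CPM in controls and 17.8, 13.5 and 14.5 CPM with LiCl. Its separation between groups was wide, while *Il1a* and *Il1b* were at only a few counts.

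Of the 25 genes of kinases and adaptors, 7 were higher and 5 lower, and none was beyond the fold change threshold. *Ripk1*, which encodes a kinase of the TNF receptor complex, fell by 0.51 on the log2 scale (standard error 0.05, adjusted p = 9.1e-05). *Ikbkg*, which encodes the regulatory subunit of the IKK complex, fell by 0.20 and *Chuk*, which encodes a catalytic subunit of it, rose by 0.19 (adjusted p = 0.012 and 0.013), but both missed the test without LiCl replicate 3, at adjusted p of 0.0502 and 0.052, and *Chuk* also without control replicate 3, at 0.056. The IKK-related kinase genes *Tbk1* and *Ikbke* rose by 0.40 and 0.51 (adjusted p = 0.00094 and 0.0040). *Ikbkb*, the gene of the other catalytic subunit, had a log2 fold change of -0.08 (adjusted p = 0.19), and 13 of the 25 genes passed in neither direction.

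Of the 15 tested inhibitor genes, 3 were higher and 5 lower. *Zc3h12a*, which encodes a ribonuclease that degrades cytokine mRNAs, had 1.81, 2.06 and 1.599 CPM in controls and 1.09, 0.97 and 0.64 CPM with LiCl (log2 fold change -1.01, standard error 0.25, adjusted p = 0.0099). The value of *Zc3h12a* was at the threshold and was -0.91 without control replicate 2 and -0.81 without LiCl replicate 3. *Irak3*, an inhibitor of Toll-like receptor signaling, fell by 0.93 on the log2 scale (adjusted p = 0.0086).

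Of the 5 tested ligand genes, 1 was higher and 2 were lower. *Il33*, which encodes an alarmin of epithelial and stromal nuclei, had 30.6, 30.5 and 29.01 CPM in controls and 5.92, 6.84 and 6.85 CPM with LiCl. All LiCl samples were far below all controls, and the log2 fold change of *Il33* was -2.20 (standard error 0.08, adjusted p = 3.2e-07). *Il1rn*, which encodes the antagonist of the IL-1 receptor, had 1.04, 0.93 and 0.55 CPM in controls and 1.71, 2.65 and 1.81 CPM with LiCl, and its log2 fold change was 1.28 (standard error 0.29, adjusted p = 0.0066). *Tnfsf12*, the gene of the ligand TWEAK, fell by 0.71 on the log2 scale (adjusted p = 0.0066).

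Of the 17 other tested targets, 3 were higher and 6 lower. The complement gene *C3* had 14, 14 and 7 counts in controls and 75, 48 and 78 with LiCl (log2 fold change 2.56, standard error 0.32, adjusted p = 0.00025). *Mmp9*, which encodes a gelatinase, had 1.67, 3.03 and 2.64 CPM in controls and 5.92, 5.62 and 6.56 CPM with LiCl (log2 fold change 1.30, standard error 0.20, adjusted p = 0.00086). Both genes were higher in every LiCl sample than in every control. *Ccl11*, which encodes the eosinophil attractant eotaxin, had 33, 20 and 39 counts in controls and 5, 0 and 3 with LiCl (log2 fold change -3.42, standard error 0.59, adjusted p = 0.0014). *Plau*, which encodes urokinase, fell by 0.98 on the log2 scale (adjusted p = 0.00042). Of the 9 tested CXC chemokine genes, *Cxcl3* (5.66) and *Cxcl2* (2.96) rose and *Cxcl13* (-3.12) and *Cxcl12* (-1.39) fell past the fold change threshold, with log2 fold changes in parentheses and adjusted p between 2.1e-07 and 0.00026. This is 44.4% of the list, against 7.33% of all tested genes, and the difference was not tested. Over all alternative settings, *Cxcl3* ran from 1.09 to 7.61 and *Cxcl2* from 0.41 to 3.24. *Cxcl13* ran from -3.40 to -1.16 and *Cxcl12* from -1.42 to -1.34.

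**Figure D5:**
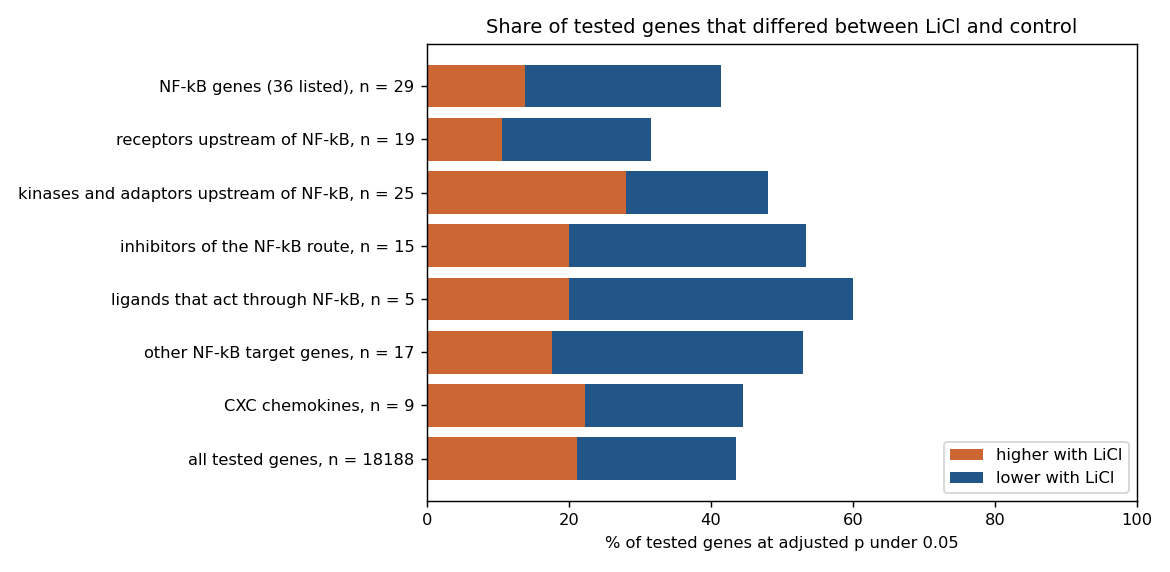
Share of tested genes (percent) called higher or lower at an adjusted p under 0.05 in the NF-kB genes (29 tested of 36), in the pathway lists and among all tested genes. The bars of the NF-kB genes and of all genes are of similar length, at 41.4% and 43.5% in total.

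Several facts of the whole tissue stand beside these values. The total count per sample lay between 28473436 and 31266945, and replicates within either group were further apart than counting noise allows. All 12 markers of the ureteric epithelium and all 12 of the ureteric mesenchyme (UM) were expressed, as the label of the tissue says. Summed CPM of the epithelial markers were 1329 to 1644 in controls and 979 to 1015 with LiCl, and those of the mesenchymal markers were 6933 to 7724 and 5240 to 5705. At an adjusted p under 0.05, 10 of the 12 epithelial markers were lower and 1 was higher. Of the 12 mesenchymal markers, 7 were lower and 2 higher. Among all tested genes, 22.4% were lower and 21.1% higher. *Upk1b*, *Upk3a* and *Krt19* were the epithelial markers beyond the fold change threshold (log2 fold changes -1.95, -1.42 and -1.20). LiCl replicates 1 and 3 stood apart by transcripts of skeletal muscle, whose 10 markers summed to 39.8 and 84.0 CPM there, to 8.99 CPM in LiCl replicate 2 and to 7.54 to 9.70 CPM in controls. In that list, 6 of 8 tested genes were higher beyond the threshold (*Myh3*, *Myog*, *Mybpc1*, *Actn2*, *Smyd1* and *Mylpf*, log2 fold changes 2.36 to 4.76), of which *Myog*, *Mylpf* and *Smyd1* missed the test in some fits with 1 sample left out (adjusted p 0.054 to 0.14). With both these libraries left out, *Vcam1* had a log2 fold change of -1.43 and *Traf1* of -1.14, and 2 NF-kB genes (*Nfkbib* and *Traf2*) were higher and 3 (*Tnip1*, *Traf1* and *Vcam1*) lower at an adjusted p under 0.05, in a fit in which the remaining LiCl sample is assumed to vary as the controls do.

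Markers of cell types that carry NF-kB targets changed to different degrees. Among all tested genes, 43.5% passed in either direction at an adjusted p under 0.05. The share was larger among the macrophage markers and smaller among the endothelial markers, and these differences were not tested. Of 15 macrophage markers, 1 was higher and 8 lower, with *Fcgr1* (-2.56) and *Cx3cr1* (-1.24) beyond the threshold on the log2 scale, and the summed CPM were 127 to 192 in controls and 108 to 144 with LiCl, with overlap. Of 12 endothelial markers, 0 were higher and 3 lower, with *Tek* at -1.15, and the sums of 634 to 806 and 584 to 717 CPM overlapped. Neutrophil and lymphocyte markers summed to at most 1.70 and 7.60 CPM in any sample. From these lists, 1 neutrophil gene, *Csf3r* (-1.27), and 3 lymphocyte genes could be tested, of which *Cd79b* (-1.43) was lower. *Csf3r* missed the test without control replicate 3 or LiCl replicate 1 or 2 (adjusted p 0.071 to 0.096). *Vcam1*, *Csf1*, *Irf1* and the other NF-kB genes are expressed by several of these cell types, and the part of cell composition in their values was not tested.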

How the data were processed

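RNA was poly-A enriched and sequenced from 3 LiCl and 3 water samples, grouped by their labels. The authors deposited raw counts per gene and FPKM. The study's methods name HISAT2 on GRCm39 and featureCounts. The submitters' processing notes list fastp 0.23, STAR 2.7, featureCounts 2.0 and DESeq2 1.40 instead, and this difference was not resolved. The annotation release and the strand setting of the counting are not given in the sources used here, so overlapping genes and close copies (*Saa3*, *Ccl2*) are uncertain. The deposited FPKM were the same counts on another scale: gene lengths implied by both were whole within 0.05 in 100% of values over 50 counts.

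The 18188 genes left by filterByExpr were tested on their counts with TMM factors and the quasi-likelihood F test of edgeR 4.0.16 (R 4.3.3), with Benjamini-Hochberg adjustment over all of them. Log2 fold changes came from this fit, 95% intervals are unadjusted, and standard errors were derived from the F statistic. The smallest p of an exact permutation test of 3 against 3 samples is 0.1, so none was run. Symbols came from a GENCODE vM21 table (52073 of 56748 identifiers), made for GRCm38, and promoter coordinates are those of GRCm38.p6. The script that runs the fit was tested on simulated data.

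The genes and lists were chosen with earlier results of these data known. All 36 genes are reported; other pathway and marker genes were named where they passed both thresholds, and *Il1r1*, *Tlr2*, *Ripk1*, *Ikbkg*, *Chuk*, *Tbk1*, *Ikbke*, *Irak3*, *Tnfsf12* and *Plau* were named after their values were seen. The alternatives were other scalings, filters and tools, limma 3.58.1 on log2(FPKM + 1) or log2(FPKM + 0.1), DESeq2 1.42.0, the replicate number as a block, and each replicate left out in turn. Same-numbered samples did not deviate together (correlations of deviations -0.01, -0.18 and 0.13). The labels do not say whether the numbers pair the samples, and with 3 replicates per group these values cannot settle it.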

Additional observations from a re-analysis of the deposited data

How the results depend on the processing

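Of the 12 NF-kB genes that passed at an adjusted p under 0.05, 7 (*Nfkbia*, *Nfkbib*, *Tnip1*, *Traf1*, *Traf2*, *Vcam1* and *Ier3*) passed in every other setting and every single-sample omission that gave a value, apart from the omission of both LiCl libraries with muscle transcripts, and *Nfkb1*, *Nfkbiz*, *Icam1*, *Irf1* and *Cebpd* did not. The cause of these losses was not tested. With the replicate number as a block, 4 were higher and 7 lower, since *Irf1* was lost at an adjusted p of 0.051.

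The number lower beyond the fold change threshold was 2, but 0 with limma on log2(FPKM + 1) with and without a filter on mean FPKM, 1 with limma on log2(FPKM + 0.1), and 1 to 2 with single replicates left out. The number higher beyond it was 0 and became 0 to 1 with single replicates left out. At an adjusted p under 0.05, limma on log2(FPKM + 1) without filter left 5 lower, and leaving out single replicates gave 6 to 8 lower and 3 to 5 higher. Leaving out both LiCl libraries with muscle transcripts, chosen after seeing the data, left 3 lower and 2 higher, with fewer samples. The median log2 fold change of -0.08 became -0.036 with limma on log2(FPKM + 1) without filter, -0.16 without both muscle libraries and -0.16 to -0.085 with single replicates left out. *Saa3* ran from -0.64 to 3.51 in such fits, the latter without control replicate 2. *Myog*, *Mylpf* and *Smyd1* turned to -0.85, -0.29 and -0.65 without the muscle libraries.

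Over the 6 pathway lists, 5 genes were higher and 6 lower beyond the fold change threshold. Requiring 10 counts in every sample left 2 and 3, limma on log2(FPKM + 1) 1 and 3 with and without filter, and limma on log2(FPKM + 0.1) 2 higher, while leaving out single replicates gave 5 to 6 higher and 4 to 9 lower. At an adjusted p under 0.05, 18 were higher and 24 lower, and 11 and 12 without the muscle libraries. Depth limited the genes with about 30 or fewer counts in most samples (*Ccl2*, *Tnf*, *Ptgs2*, *Saa3*), whose intervals span more than 1 log2 unit.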

Other observations

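Further genes of the signaling route passed the test with small changes, and those named here were chosen after their values were seen. *Tnfrsf1a*, which encodes the main TNF receptor, had 71.9, 72.2 and 74.5 CPM in controls and 58.7, 55.4 and 64.0 CPM with LiCl (log2 fold change -0.30, adjusted p = 0.0035 in edgeR's quasi-likelihood test). The IL-1 receptor-associated kinase genes *Irak1* and *Irak2* fell by 0.30 and 0.48 on the log2 scale, and *Tab2*, which encodes an adaptor of the kinase TAK1, rose by 0.30 (adjusted p = 0.00098, 0.0035 and 0.0016). Other genes of the same receptor complexes did not pass, among them *Tradd*, *Myd88* and *Irak4* (adjusted p = 0.64, 0.73 and 0.13).

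Among other NF-kB targets, *Cd83*, a surface marker of activated dendritic cells that other cells express too, had 6.54, 6.51 and 7.996 CPM in controls and 12, 10.5 and 10.9 CPM with LiCl (log2 fold change 0.67, adjusted p = 0.0016). *Nos2*, which encodes the inducible nitric oxide synthase, had 6.50, 5.22 and 5.91 CPM in controls and 3.19, 4.12 and 3.65 CPM with LiCl (log2 fold change -0.69, adjusted p = 0.0049). *Gadd45b* and *Bcl2l1*, which act on cell survival, fell by 0.56 and 0.27 on the log2 scale (adjusted p = 0.0085 and 0.0020).

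*Sele*, which encodes the endothelial adhesion molecule E-selectin, had 12, 7 and 8 counts in controls and 0, 0 and 0 with LiCl. It did not pass the filter of the test and was noted after its values were seen. Without a filter on low counts, *Ccl20* had an adjusted p of 2.7e-05, which rests mostly on the 48 counts of control replicate 1.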
